A study of Mus musculus with 24 samples.

Results

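The T cell receptor of most CD4 T cells pairs an alpha chain with a beta chain, and each chain begins with a variable (V) segment. The V segments were taken as the rows of the deposited table of read counts whose GENCODE M21 symbol begins with Trav or Trbv. These were 163 of 39056 rows, of which 128 were alpha chain segments (Trav, chromosome 14) and 35 were beta chain segments (Trbv, chromosome 6). The annotation lists 108 Trav and 22 Trbv rows as functional and the other 20 and 13 as pseudogenes. Each segment is given as its usage, the percent of the summed Trav or summed Trbv reads of its own library, so that usage compares segments within a chain.

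Total RNA was sequenced from 4 subsets of sorted CD4 T cells, with 24 libraries in all and 3 in each of 8 groups. All mice were females of NZBWF1/j, hybrids of New Zealand Black and White parents that are prone to a lupus-like disease. Treated mice were given recombinant mouse OX40L, a ligand of the costimulatory receptor OX40, and JAG1, a ligand of Notch receptors. Both proteins were injected into the peritoneum at 2 mg/kg in 3 weekly doses that began at 23 weeks of age. Control mice were injected with PBS, and cells were sorted at week 26. Conventional cells (Tconv) were sorted as CD4+CXCR5-GITR- and regulatory cells (Treg) as CD4+CXCR5-GITR+. Follicular helper cells (TFH) were CXCR5+ and PD1Hi with absent or low GITR, and follicular regulatory cells (TFR) were CXCR5+ and PD1Hi with GITRHi. The labels do not tell whether the 3 libraries of a group were drawn from different mice. The p-values therefore measure the spread between libraries, which may be technical.

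V segments are chosen in the thymus, when they are joined by the RAG recombinase to a joining segment, in the beta chain with a diversity segment between them. In the alpha locus further rounds of joining can replace an earlier one. The end of the V segment forms the start of the third complementarity-determining loop, which touches the peptide. Because the daughter cells of a mature T cell keep the same joined segments, a sample drawn from a few expanded clones shows few V segments and a sample of many clones shows many. Bulk counts show how many reads carried each segment, and more cells using a segment cannot be told apart from more RNA per cell. Segments of the alpha locus lie in repeated blocks, and many Trav genes have near-identical copies marked d or n in their names.

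Library totals ran from 2.54 to 53.8 M (mega) counts. Reads in V segments were far fewer, at 271 to 11384 Trav and 498 to 15937 Trbv reads per library. Libraries of control TFH cells held 674, 329 and 1747 Trav reads and those of control TFR cells held 1001, 788 and 271. The 18 libraries of the other groups held 2482 or more. Replicates differed by more than counting noise in every group, with a chi-square per degree of freedom of 2.22 to 28.8 for Trav, so none were counted as copies of 1 library. The sums of the Treg markers were 1982 to 2870 counts per M counts of the library (CPM) in the Treg and TFR libraries, 790.0 to 1040.0 in TFH and 132 to 212 in Tconv libraries. TFH markers set follicular and Treg libraries less far apart. They summed to 1158 to 1275 CPM in control TFH, 1301 to 1446 in control TFR and 1046 to 1071 in control Treg libraries. In treated mice they summed to 869 to 1065 in TFH, 835 to 963 in TFR and 727 to 736 in Treg libraries, and Tconv libraries held 228 to 310. Podocyte transcripts of the kidney marked 4 libraries, control Tconv 1 and 2, treated TFH 3 and treated TFR 1. Treated Treg 3 held 121 CPM of podocyte markers, beside 18.7 and 19.7 in the other treated Treg libraries. It fell short of the rule given below for kidney libraries and was not counted among them.

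Some of the beta chain segments that carried many reads are shown by their 3′ ends. This stretch encodes the conserved cysteine and the first residues of the third loop. Each line is the last 45 bases of the GENCODE M21 transcript (GRCm38/mm10), 5′ to 3′, with the cysteine codon in capitals. Trbv17 and Trbv29 are shown because later comparisons turn on them, and Trav1 and Trav11d because they belong to semi-invariant receptors.
Trbv2: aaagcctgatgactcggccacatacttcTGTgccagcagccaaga
Trbv12-2: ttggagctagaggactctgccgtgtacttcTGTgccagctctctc
Trbv20: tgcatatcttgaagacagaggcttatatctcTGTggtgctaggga
Trbv31: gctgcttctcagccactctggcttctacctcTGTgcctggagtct
Trbv17: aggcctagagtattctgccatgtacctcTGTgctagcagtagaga
Trbv29: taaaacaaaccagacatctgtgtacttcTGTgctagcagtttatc
Trav1: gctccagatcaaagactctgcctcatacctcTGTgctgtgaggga
Trav11d: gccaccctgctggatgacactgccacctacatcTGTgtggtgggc

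Beta chain usage was dominated by the same few segments in all 8 groups. Weighting groups equally, Trbv13-1 took 17.4% of Trbv reads, Trbv13-2 took 17.1%, Trbv2 took 13.1%, Trbv31 took 10.1% and Trbv1 took 9.07%. Trbv12-2 and Trbv20 followed with 7.19 and 7.14%. The 10 leading Trbv segments together held 80.1 to 93.8% of Trbv reads in single libraries. Alpha chain usage was spread more widely, and the 12 Trav segments that led by mean share held 37.3 to 51.7%. Single control follicular libraries were more concentrated, on segments of their own. The top 10 Trav segments of each library held 60.1 to 96.05% in control TFH and 55.4 to 83.8% in control TFR libraries. Trav3-3 and Trav14d-3-dv8 led, and in control Tconv libraries they took 7.90, 7.65 and 9.12% and 7.22, 8.15 and 5.96% of Trav reads.

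**Figure D1:**
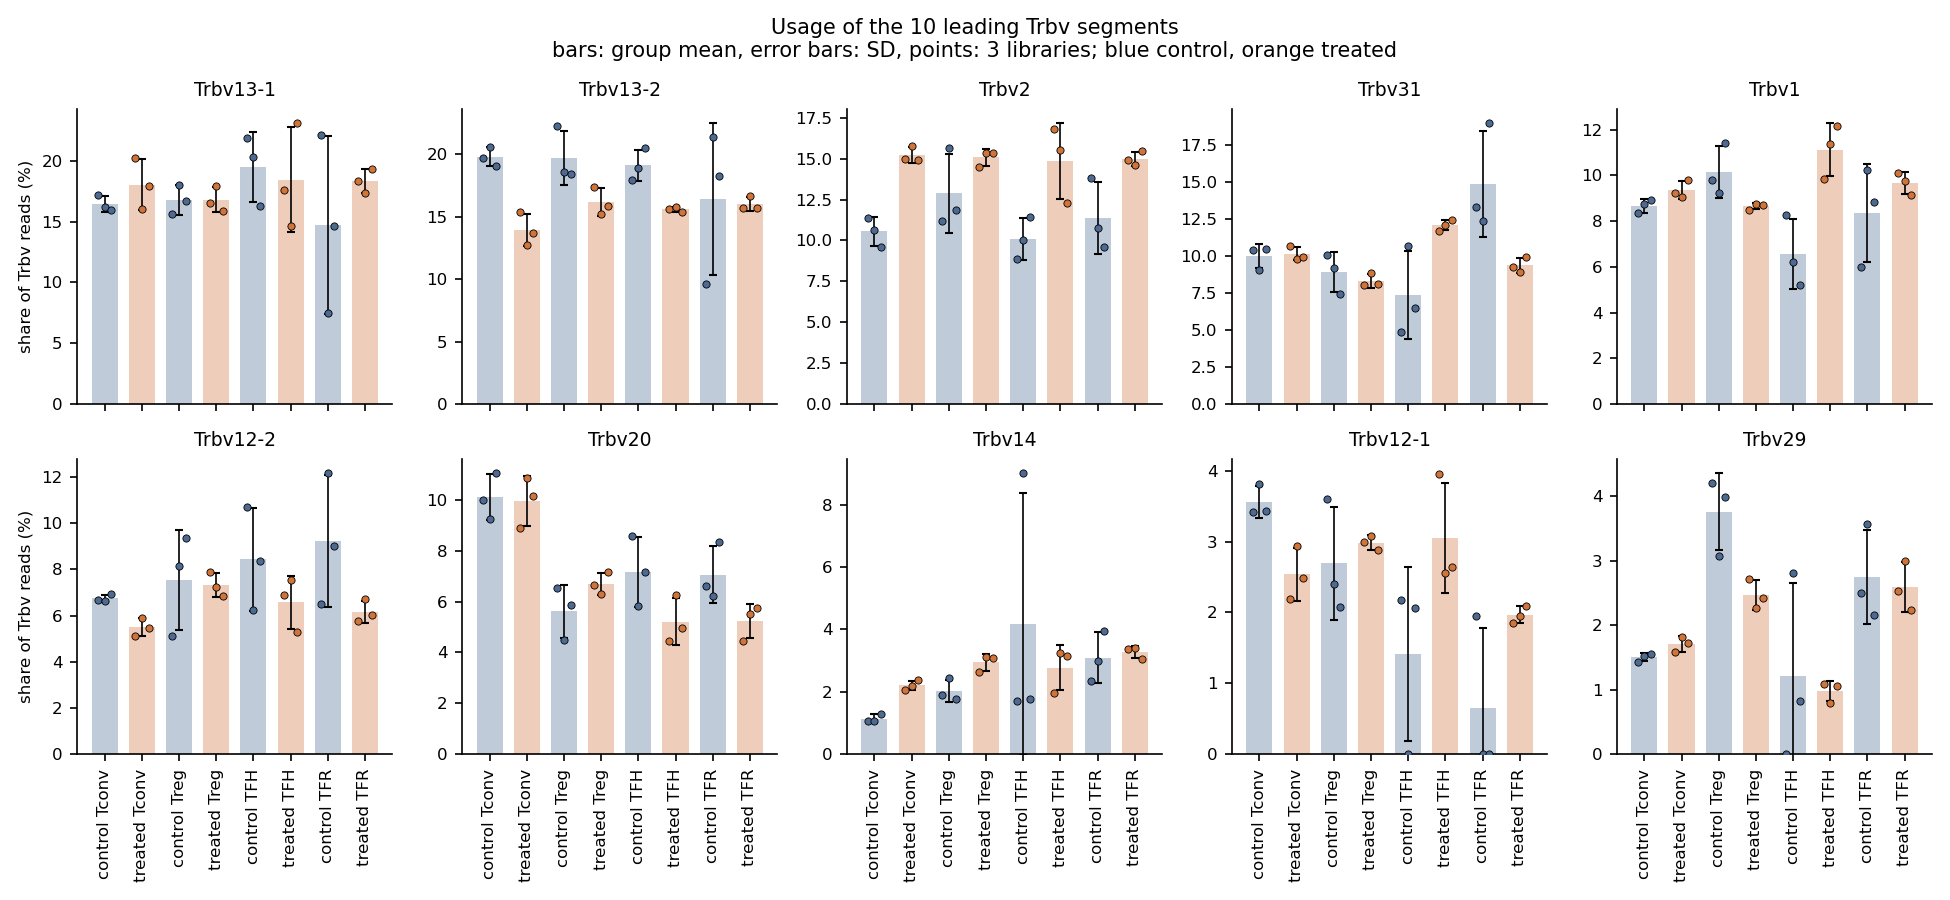
Usage of leading Trbv segments (percent of Trbv reads, linear axis) in each of the 24 libraries, by subset and treatment. Points are libraries, bars are means of the 3 libraries of a group and error bars are SDs. Trbv20 lies between 8.91 and 11.1% in the 6 Tconv libraries and between 4.47 and 7.15% in the 6 Treg libraries.

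The Trbv13 family held 3 neighbouring genes that were used very unequally. They lie at chr6:41116007-41116468 (Trbv13-1), chr6:41121396-41121832 (Trbv13-2) and chr6:41130147-41130585 (Trbv13-3), all on the plus strand. Trbv13-3 falls outside the rule for named segments and was chosen after its values were seen. In control Tconv libraries it took 0.986, 0.445 and 1.06% of Trbv reads, while Trbv13-2 took 19.7, 20.6 and 19.1%. The last 150 bases of the 3 genes are printed to show that reads can be told apart, with capitals where the bases are not the same in all of them.
Trbv13-1: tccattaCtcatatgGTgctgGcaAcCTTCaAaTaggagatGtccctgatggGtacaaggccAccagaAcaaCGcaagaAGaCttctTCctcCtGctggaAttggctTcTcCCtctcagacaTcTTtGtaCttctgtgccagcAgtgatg
Trbv13-2: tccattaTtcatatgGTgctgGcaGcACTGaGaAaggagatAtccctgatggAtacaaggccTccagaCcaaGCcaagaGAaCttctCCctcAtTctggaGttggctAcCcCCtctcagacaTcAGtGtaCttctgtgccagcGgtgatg
Trbv13-3: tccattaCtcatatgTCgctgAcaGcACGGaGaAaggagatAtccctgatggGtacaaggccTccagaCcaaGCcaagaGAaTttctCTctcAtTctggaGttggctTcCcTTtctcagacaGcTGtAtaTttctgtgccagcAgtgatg
Over these 150 bases Trbv13-1 differed from Trbv13-2 at 24 positions and from Trbv13-3 at 30, and Trbv13-2 from Trbv13-3 at 16. Mice of this hybrid strain may carry other V alleles than the mm10 reference, and their part in the unequal usage was not tested.

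To compare subsets, usage was tested with edgeR's quasi-likelihood test in 1 model of all 24 libraries, with an offset of the summed Trav or Trbv reads and Benjamini-Hochberg adjustment over the 18789 genes that passed the low-count filter. Of the V segments, 68 Trav and 24 Trbv rows passed that filter, 92 of 163. The other 71 members were too rarely read to be tested. Between control Treg and control Tconv cells 2 segments fell and none rose, against 9.33% of all genes called and 3.4% lower. The 2 were Trbv20 and the Trav20 pseudogene.

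Trbv20 was used less by Treg than by Tconv cells (chr6:41188273-41188977, plus strand). It took 9.998, 9.26 and 11.1% of Trbv reads in control Tconv libraries and 6.53, 4.47 and 5.88% in control Treg libraries. The groups did not overlap, and the difference was -0.85 on the log2 scale (SE 0.25, adjusted p = 0.035 by edgeR's quasi-likelihood test). In treated mice it took 8.91, 10.9 and 10.2% in Tconv and 6.68, 6.30 and 7.15% in Treg libraries. These groups did not overlap either, and the difference of -0.57 did not pass the test (adjusted p = 0.18) with the spread shared by all libraries. In a fit of only those 6 libraries the same difference had an SE of 0.09 and an adjusted p of 0.0001. Leaving out any of the 6 libraries, or the low-count filter, ended the call in control mice. In the fit of the 6 control libraries 3 segments were called, against 21.8% of all genes.

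Treated TFH cells also used Trbv20 less than treated Tconv cells. It took 4.44, 6.24 and 4.96% of Trbv reads in treated TFH libraries, all below the Tconv values above, with a log2 difference of -0.94 (SE 0.25, adjusted p = 0.011 by edgeR). Control TFH libraries took 8.58, 5.82 and 7.16%, again all below control Tconv, with a difference of -0.49 that did not pass (adjusted p = 0.15). TFR libraries took 6.63, 6.23 and 8.34% in control and 4.46, 5.51 and 5.75% in treated mice. In all, 2 segments fell in treated TFH against treated Tconv cells, where 18.1% of all genes were called and 7.74% were lower. The call for Trbv20 was lost without treated Tconv 2 (adjusted p = 0.065), without treated TFH 1 (0.059), without the 4 libraries with kidney transcripts (0.10) and without the low-count filter (0.091). The fit of those 6 libraries called 14 segments, against 49.5% of all genes.

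Trbv29 went the other way between Treg and Tconv cells, though not past the test that shares the spread of all libraries. It took 1.43, 1.52 and 1.56% of Trbv reads in control Tconv and 4.204, 3.08 and 3.99% in control Treg libraries. In treated mice it took 1.58, 1.82 and 1.72% in Tconv and 2.72, 2.27 and 2.42% in Treg libraries. Neither pair of groups overlapped. In fits of only the libraries compared, the log2 differences were 1.32 (SE 0.25, adjusted p = 0.010) in control and 0.53 (SE 0.13, adjusted p = 0.0044) in treated mice.

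Among treated mice no segment passed the test between Treg and Tconv cells (11.9% of all genes called, 1 segment at an unadjusted p under 0.05) or between TFR and Treg cells (4.61%, 1 segment at an unadjusted p under 0.05). DESeq2 called 1 and 0 segments there, with no share of all genes given for it. The only segment called between treated TFR and treated TFH cells was Trav20, where 9.59% of all genes were called. When only the libraries compared were fitted, 17, 9 and 10 segments were called in these 3 comparisons, against 60.1, 41.2 and 28.3% of all genes. The spread differed widely between groups, with a biological coefficient of variation of 0.0751 in treated Tconv, 0.359 in treated Treg and 1.04 in control TFH libraries, so a shared spread is wide for the first and narrow for the last.

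Trav20 is annotated as a pseudogene and was chosen for mention after its values were seen. It took 0.0817, 0.264 and 0.236% of Trav reads in control Tconv and 0.228, 0.202 and 0.143% in treated Tconv libraries, and had no read in any control Treg, control TFH, treated TFH or control TFR library. For a group without any read, a fold is a lower bound, taken with 3 reads in that group from the reads pooled over its 3 libraries. Such bounds cover counting error only and not the spread between libraries. Trav20 was at least 5.76-fold higher in control Tconv than in control Treg cells. Treated Treg libraries took 0.103, 0.161 and 0.199%, at least 4.32-fold above control Treg. This was the only segment called between treated and control Treg cells, where 8.75% of all genes were called, and leaving out any of the 6 libraries ended the call. The fit of the 6 Treg libraries called 8 segments, against 40.9% of all genes.

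The treatment comparisons asked whether V usage differed between treated and control mice within a subset. In Tconv cells no segment passed the test, against 9.94% of all genes, and 3 segments had an unadjusted p under 0.05. DESeq2 called 2. The median log2 difference over the 92 tested segments was -0.01, beside 0.02 over all genes. The shares of 27 segments (29.3%) did not overlap between the groups, beside 43% of all genes by CPM.

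Among these, Trbv2 and Trbv13-2 stood in opposite directions. Trbv2 took 11.4, 10.6 and 9.61% of Trbv reads in control and 14.95, 15.8 and 14.9% in treated Tconv libraries, a log2 difference of 0.53 (SE 0.18, adjusted p = 0.072). Trbv13-2 took 19.7, 20.6 and 19.1% in control and 15.3, 12.75 and 13.7% in treated Tconv libraries, a difference of -0.51 (adjusted p = 0.11). Neither pair overlapped. With only the 6 Tconv libraries in the fit 6 segments passed, against 36.7% of all genes, among them Trbv2 (adjusted p = 0.0041), Trbv13-2 (0.0049) and Trbv14 (0.0092). Trbv14 took 1.04, 1.06 and 1.30% in control and 2.07, 2.20 and 2.36% in treated Tconv libraries.

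In the other subsets Trbv2 was tested in the same way. In TFH libraries it took 8.85, 10.04 and 11.4% in control and 16.8, 15.5 and 12.3% in treated mice, and it rose by 0.55 on the log2 scale (SE 0.19, adjusted p = 0.036). That call was lost in the fit of the 6 TFH libraries (adjusted p = 0.40) and without treated TFH 1 (0.14), treated TFH 2 (0.097) or control TFH 1 (0.10). In TFR libraries it took 13.8, 10.75 and 9.58% in control and 14.9, 14.6 and 15.5% in treated mice (difference 0.40, adjusted p = 0.13). In Treg libraries the groups overlapped, with 11.2, 15.6 and 11.9% in control and 14.5, 15.4 and 15.3% in treated mice (0.23, adjusted p = 0.58). Trbv13-2 in Treg libraries took 22.2, 18.6 and 18.4% in control and 17.4, 15.2 and 15.9% in treated mice (-0.29, adjusted p = 0.48). In TFH libraries it took 17.95, 18.9 and 20.45% in control and 15.6, 15.8 and 15.4% in treated mice (-0.30, adjusted p = 0.27). In TFR libraries the groups overlapped, with 9.64, 21.4 and 18.2% in control and 15.7, 16.65 and 15.7% in treated mice (-0.04, adjusted p = 0.91).

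The level of V segment RNA, as opposed to usage, is the CPM summed over a chain. Summed Trav reads were 151.9 ± 20.3 CPM in control and 279.9 ± 6.69 CPM in treated Tconv libraries (SD, n = 3). Summed Trbv reads there were 227.5 ± 35.7 and 318.5 ± 11.6 CPM. The groups did not overlap in either chain. By gene, Trbv2 alone passed the test (log2 difference 1.02), 1 of 92 segments against 9.94% of all genes. The CPM of 55 segments (59.8%) did not overlap and all 55 were higher in treated mice, beside 43% of all genes, and the median difference was 0.74 beside 0.02.

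The constant and CD3 genes rose together in treated Tconv cells. All 7 (Trac, Trbc1, Trbc2, Cd3d, Cd3e, Cd3g and Cd247, which encode the receptor's constant parts and its signalling chains) rose, with a median log2 difference of 0.85 beside 0.02 over all genes. Trac rose from 464.9 ± 72.7 to 842.8 ± 30.5 CPM (SD, n = 3), by 0.86 on the log2 scale (SE 0.12, adjusted p = 2.4e-05 by edgeR). Control Tconv 1 and 2 held kidney transcripts, and the T cell markers summed to 2061 to 2628 CPM in control and 4146 to 4346 CPM in treated Tconv libraries. In the other subsets 2 of 7 rose in Treg, 2 in TFH and 4 in TFR cells, where 8.74, 22.4 and 22% of all genes were called. Of the 74 joining and diversity segments tested, none was called in Tconv or Treg cells, 8 rose in TFH cells (22.4% of all genes called, 16.5% higher), and 5 rose and 1 fell in TFR cells (22% called, 15.6% higher).

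In Treg cells 1 segment, Trav20, was called by level against 8.74% of all genes. Summed Trav reads were 108.9 ± 5.98 CPM in control and 145.2 ± 10.5 CPM in treated Treg libraries (SD, n = 3). In TFR libraries they were 78.0 ± 23.8 and 142.4 ± 6.68 CPM, and in TFH libraries 121.1 ± 5.30 and 148.2 ± 19.98 CPM. Summed Trbv reads did not follow in the follicular subsets, with 225.8 ± 35.7 and 208.5 ± 33.0 CPM in TFH and 246.4 ± 53.4 and 220.1 ± 5.58 CPM in TFR libraries. By level 17 segments rose and 2 fell in TFH cells, against 22.4% of all genes, 16.5% higher and 5.87% lower. In TFR cells 19 rose and 1 fell, against 22% of all genes, 15.6% higher and 6.39% lower. Fits of only the libraries compared called 26, 15, 8 and 11 segments by level in Tconv, Treg, TFH and TFR cells, against 36.8, 40.9, 11.5 and 21% of all genes.

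Trav usage was narrowest in follicular cells of control mice. The effective number of segments, the exponential of the Shannon entropy of usage, counts how many equally used segments would give the same diversity. It was 18.9, 9.50 and 23.8 for Trav in control TFH libraries and 26.9, 20.65 and 13.9 in control TFR libraries. In treated mice it was 39.6 to 41.7 in TFH and 41.9 to 44.4 in TFR libraries, and in the 12 Tconv and Treg libraries it was 44.9 to 47.2. The control follicular libraries lay below all others without overlap.

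Those libraries also held the fewest Trav reads, so all libraries were thinned to 271 Trav reads. The effective numbers were then 18.3, 9.47 and 22.3 in control TFH and 25.75, 19.7 and 13.9 in control TFR libraries, while the other 18 libraries gave 34.4 to 41.65. The gap was thus also present at equal read number. For Trbv the effective number was 9.81, 9.36 and 12.45 in control TFH and 11.9, 11.2 and 9.32 in control TFR libraries, and 10.3 to 13.05 in the 18 others. Thinned to 498 Trbv reads they were 9.73, 9.36 and 12.2, 11.7, 11.1 and 9.29, and 10.1 to 12.7 in the others. How many cells were sorted for each library is not given in the sources used here, and its part in these numbers was not tested.

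**Figure D2:**
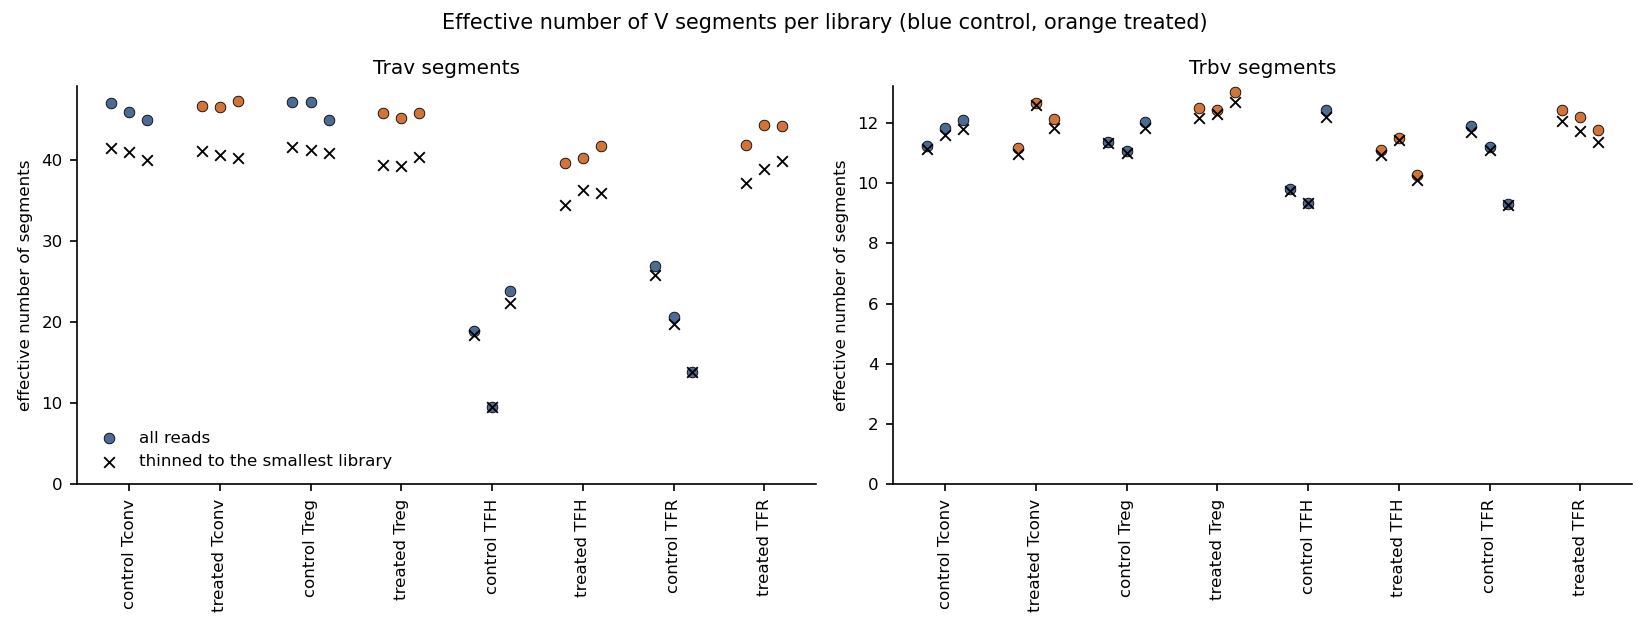
Effective number of Trav and Trbv segments per library, with all reads and with every library thinned to 271 Trav or 498 Trbv reads, by group. Circles are libraries with all reads (blue control, orange treated) and crosses the same libraries thinned. The 6 control TFH and TFR libraries lie at 9.50 to 26.9 for Trav with all reads and the other 18 at 39.6 to 47.2.

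Single libraries of control follicular cells lacked segments that were common elsewhere. Of 47 Trav segments that took at least 0.5% on average in both Tconv groups, control TFH libraries lacked 15, 25 and 34 in ascending order, and control TFR libraries 16, 17 and 32. Treated Treg, treated TFH and treated TFR libraries lacked 0, and control Treg libraries lacked 0 or 1. Tconv libraries also lacked 0, but the segments were chosen by their Tconv shares, so these libraries are no contrast. These counts are not at equal depth, and a share of 0.5% gives few reads in control TFH 2 (329 Trav reads) and control TFR 3 (271). Thinned to 271 Trav reads, control TFH libraries had reads in 23.75, 13.75 and 30.65 Trav segments on average over 20 draws, control TFR libraries in 35.4, 29.3 and 18, and the 18 others in 52.1 to 57.55. In control TFH cells 8 of the 47 had no read in any of the 3 libraries: Trav1, Trav6d-5, Trav8n-2, Trav4-2, Trav7-3, Trav12-1, Trav14-2 and Trav19. In control TFR cells these were Trav6d-5, Trav7n-4, Trav8n-2, Trav7-3, Trav15-1-dv6-1 and Trav12-2. Of 19 Trbv segments chosen in the same way, control TFH libraries lacked 2 to 8 and control TFR libraries 1 to 6, with Trbv17 missing from all 3.

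**Figure D3:**
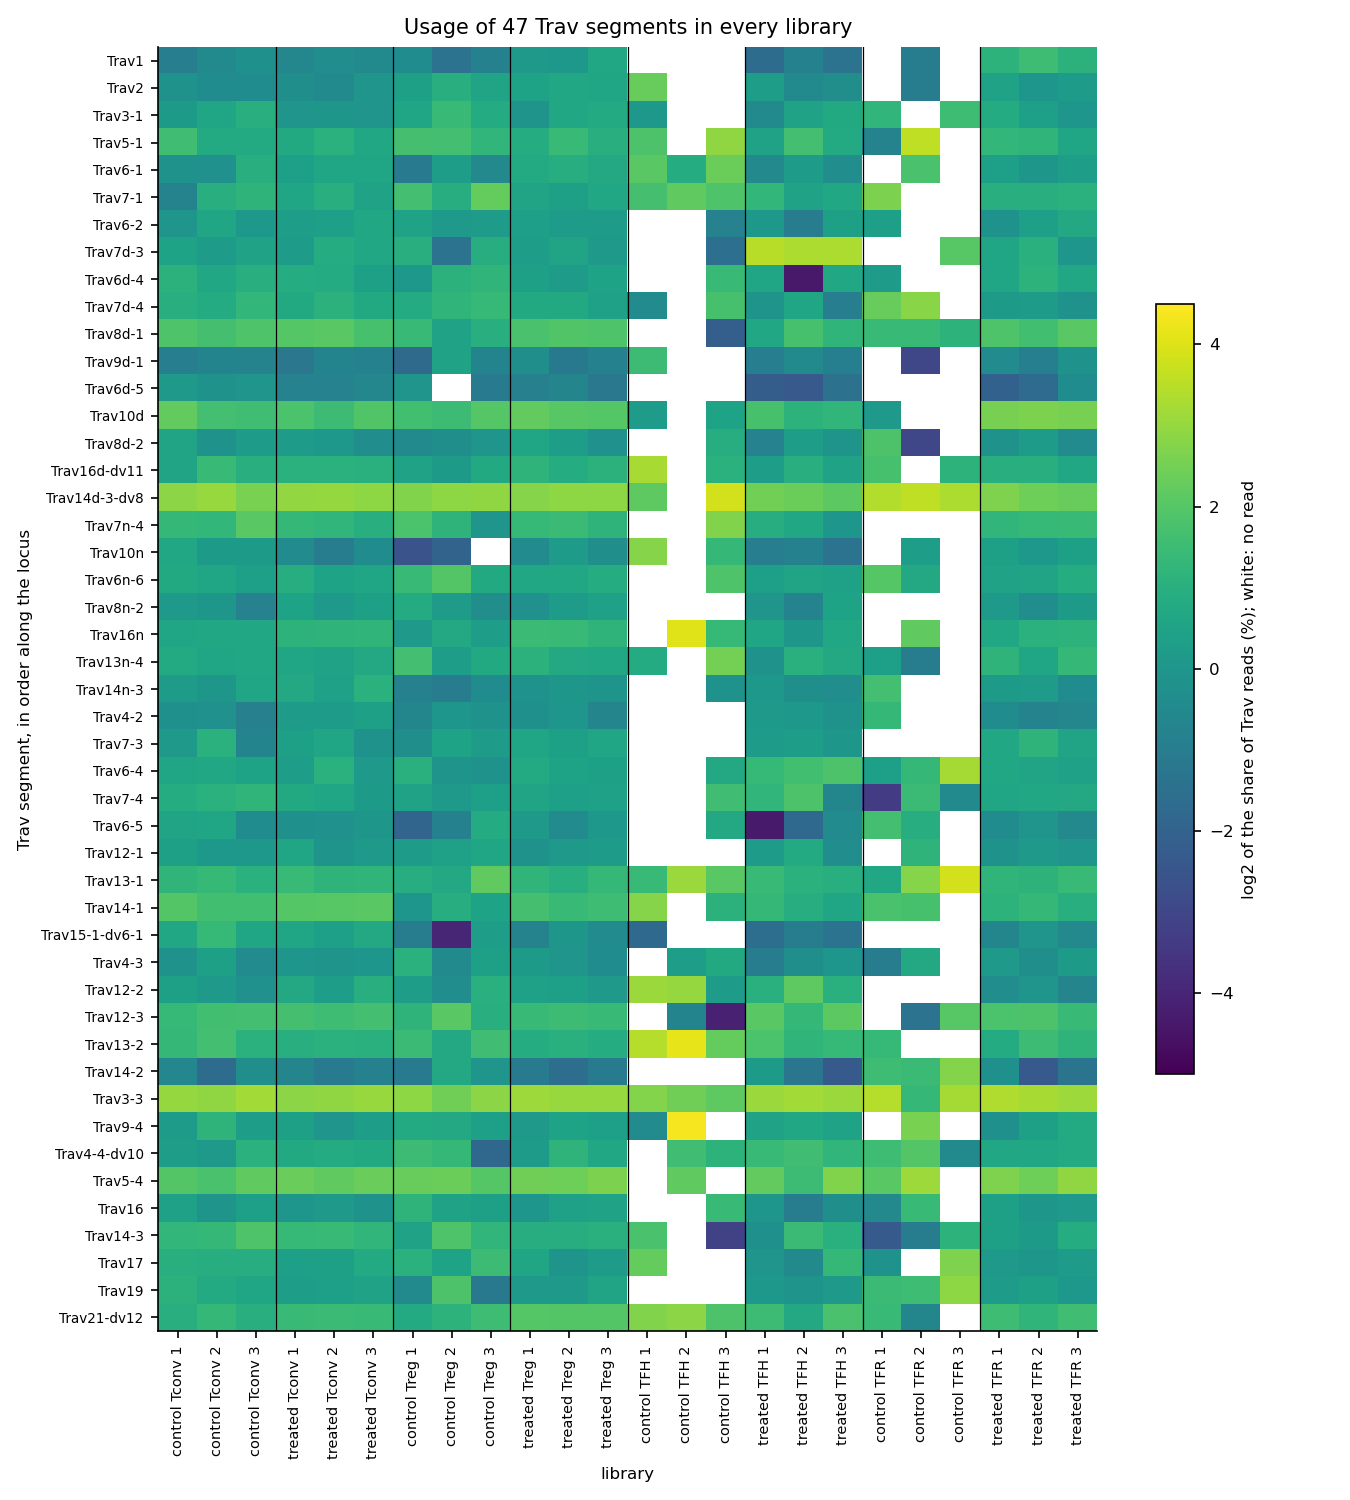
Usage (percent of Trav reads, colour scale) of the 47 Trav segments with a mean of at least 0.5% in both Tconv groups, 1 row a segment and 1 column a library. White marks segments without a read, of which control TFH columns hold 15 to 34, control TFR columns 16 to 32 and other columns at most 1. The segments were chosen by their Tconv shares, so the Tconv columns are no contrast.

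Other segments took large parts of single control follicular libraries. Trav9-4, named here after its values were seen, took 20.7% of Trav reads in control TFH 2 and 0.742 and 0% in the other 2 control TFH libraries. Trav13-2 took 10.8, 17.6 and 4.81% in control TFH libraries, against 1.65 to 3.47% in the 18 libraries outside control TFH and control TFR. Trav14d-3-dv8 took 4.45, 0 and 14.4% there. Trbv14 took 1.72, 9.04 and 1.78% of Trbv reads in control TFH libraries. It was called higher than in control Tconv cells (log2 difference 1.84, SE 0.55, adjusted p = 0.018), and the adjusted p was 0.23 without control TFH 2, 0.064 without control Tconv 1 and 0.063 without control Tconv 2.

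Members of 1 family did not all stand on the same side. In the Trav13 family, Trav13-2 and Trav13-1 took 11.1 and 5.12% of Trav reads on average in control TFH and 2.60 and 2.33% in control Tconv libraries, and neither was called. Trav13d-4 and Trav13n-3 of the same family had no read in control TFH libraries and were called lower. Of the 5 Trav8 segments, Trav8d-1, Trav8n-2 and Trav8-2 were called lower there. These families and Trbv19 were chosen after their values were seen, so the values are a description. Trbv19 took 8.91, 0 and 6.73% of Trbv reads in control TFH libraries, 0.503, 1.46 and 1.24% in control Tconv and 2.58, 2.47 and 1.498% in treated TFH libraries.

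The distance between libraries showed the same groups. Measured as the Jensen-Shannon distance of thinned Trav usage (0 for equal usage, 1 for no shared segment), the median between libraries of the same group was 0.333 in the 6 other groups and 0.701 within control TFH and control TFR cells. For Trbv these medians were 0.156 and 0.317. Replicates of control follicular cells were thus further from each other than libraries of different groups elsewhere (median 0.395 for Trav and 0.185 for Trbv).

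In control mice 20 segments fell and 2 rose in TFH against Tconv cells, with 25% of all genes called, 15.1% lower and 9.89% higher. Trav19 took 2.15, 1.74 and 1.51% of Trav reads in control Tconv libraries and had no read in control TFH libraries. It was at least 16.1-fold lower in control TFH cells with 3 of the 2750 Trav reads of that group as the floor. Trav7-3 and Trav12-1 were at least 10.8-fold and 10.3-fold lower. Trav8d-1 took 3.65, 3.27 and 3.67% in control Tconv and 0, 0 and 0.229% in control TFH libraries, a log2 difference of -4.89 (SE 0.74, adjusted p = 4.4e-05 by edgeR). The fit of those 6 libraries called 8 segments, against 11.9% of all genes. The 22 calls became 14 without control Tconv 2, a fit for which no share of all genes is given. Leaving out the 4 libraries with kidney transcripts keeps only control Tconv 3 of its group, so no count is given for that fit.

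Control TFR cells differed from control Treg cells in 10 segments, all lower, with 9.71% of all genes called and 7.43% lower. Trbv17 took 0.573, 1.10 and 0.408% of Trbv reads in control Treg libraries and none in control TFR libraries, so that it was at least 13.9-fold lower. Trav7n-4, Trav12-2 and Trav8n-2 were at least 15.9-fold, 8.998-fold and 8.84-fold lower. When only the 6 libraries were fitted no segment passed, against 3.49% of all genes.

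Between control TFR and control TFH cells 7 segments were higher in TFR and 6 lower, with 15.8% of all genes called, 7.84% higher and 7.99% lower. Some of these calls rest on the reads of a single library, with overlapping groups and no read in the other group. They are Trbv21 and Trav7n-4 in control TFH (35 and 114 reads) and Trav4-2, Trav7-5 and Trav12-1 in control TFR (25, 11 and 18). Trav19 took 2.80, 2.92 and 7.38% of Trav reads in control TFR libraries and none in control TFH libraries, at least 31.6-fold higher. Trav12-2 took 8.46, 7.90 and 1.20% in control TFH libraries and none in control TFR libraries, at least 26.0-fold lower in TFR. Trbv17 took 1.52, 5.62 and 1.01% of Trbv reads in control TFH libraries, at least 31.1-fold more than in control TFR libraries. Trbv31, which lies beyond the constant genes in the opposite orientation (chr6:41557691-41558452, minus strand), took 4.88, 10.6 and 6.51% in control TFH and 13.3, 12.35 and 18.97% in control TFR libraries (log2 difference 1.04, SE 0.25, adjusted p = 0.0073 by edgeR). When only the 6 libraries were fitted no segment passed, against 0.617% of all genes.

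Treated against control TFH cells differed in 22 segments, 20 higher and 2 lower, with 22.4% of all genes called, 16.5% higher and 5.87% lower. This comparison shares the control TFH libraries with that of TFH against Tconv cells. Trav13d-4 took 2.39, 0.859 and 1.36% of Trav reads in treated TFH libraries and none in control TFH libraries, at least 14.9-fold higher. Trav12-1, Trav7-3 and Trav19 were at least 10.96-fold, 10.5-fold and 9.49-fold higher. Of the 21 tested segments without a control TFH read whose fold bound exceeded 1, 14 were called. The fit of the 6 TFH libraries called 8 segments, against 11.5% of all genes.

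In TFH cells 5 of the 24 tested Trbv segments (20.8%) and 17 of the 68 tested Trav segments (25%) were called, beside 22.4% of all genes. The 5 were Trbv1, Trbv2, Trbv17, Trbv22 and Trbv31. Trbv22, annotated as a pseudogene and named after its values were seen, had 51 reads in control TFH 3 and none in the other TFH libraries. Trbv1 took 8.25, 6.23 and 5.22% of Trbv reads in control and 9.86, 11.4 and 12.2% in treated TFH libraries, a rise of 0.76 on the log2 scale (SE 0.23, adjusted p = 0.021). Trbv31 took 11.7, 12.1 and 12.4% in treated TFH libraries, a rise of 0.74 (SE 0.24, adjusted p = 0.033) over the control values above. Trbv17 fell by 2.28 on the log2 scale (SE 0.74, adjusted p = 0.033), from 1.52, 5.62 and 1.01% to 0.297, 0.672 and 0.672%. The call of Trbv17 was lost without control TFH 2 (adjusted p = 0.18) or any treated TFH library (0.067 to 0.12). That of Trbv31 was lost without control TFH 1 or 3 or any treated TFH library (0.062 to 0.12), and that of Trbv1 without treated TFH 2 or 3 or control TFH 3 (0.052 to 0.075). In the fit of the 6 TFH libraries none of these 3 passed (adjusted p = 0.36, 0.42 and 0.29).

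Treated against control TFR cells differed in 16 segments, 14 higher and 2 lower, with 22% of all genes called, 15.6% higher and 6.4% lower. Trbv17 took 0.902, 1.18 and 0.768% of Trbv reads in treated TFR libraries and was at least 19.05-fold higher than in control TFR cells. Trav7n-4 and Trav7-3 were at least 17.4-fold and 12.5-fold higher. The fit of the 6 TFR libraries called 9 segments, against 21% of all genes. Trav10d took 1.10, 0 and 0% of Trav reads in control and 5.80, 6.19 and 5.85% in treated TFR libraries, a rise of 3.76 on the log2 scale (SE 0.94, adjusted p = 0.0063). Trav14-2 fell by 3.08 (SE 0.87, adjusted p = 0.015), from 2.90, 2.79 and 6.64% to 0.847, 0.196 and 0.395%. Trbv31 fell by 0.67 (SE 0.24, adjusted p = 0.049), from the control values above to 9.26, 8.93 and 9.92%, a call lost without control TFR 3 (0.20) or any treated TFR library (0.095 to 0.14). The call of Trav14-2 was lost without treated TFR 2 (0.08) or 3 (0.069).

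Markers of B cells and of CD8 T and NK cells were higher in treated than in control libraries of all 4 subsets. The B cell markers summed to 1564 to 1791 CPM in treated and 338 to 395 CPM in control TFH libraries, and to 1368 to 1572 and 215 to 322 CPM in TFR libraries. The CD8 T and NK markers summed to 444.0 to 603 CPM in treated and 44.3 to 51.8 CPM in control TFH libraries, with Cd8a and Ncr1 unread in both. In TFR libraries they summed to 191 to 238 and 18 to 34.1 CPM, with Cd8a unread in both groups and Ncr1 and Klrd1 unread in control. The part of these cells in the V usage was not tested. Without control TFH 2 and control TFR 3, the libraries with fewest V reads, 24 and 20 segments were called in TFH and TFR cells. Without the 4 libraries with kidney transcripts 12 and 11 were called. The shares of all genes called in those fits are not given, so these counts do not single out V segments.

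Treatment differences were set against each other across subsets by an interaction term. The difference in TFH cells exceeded that in Tconv cells for 14 segments and was below it for none, with 19.6% of all genes called and 14.4% higher. The difference in TFR cells exceeded that in Treg cells for 8 segments and was below it for none, with 7.47% of all genes called and 5.21% higher. Each segment called for TFH cells had 6 reads or fewer in the control TFH libraries together. Those called for TFR cells had no read in control TFR libraries. The calls thus compare with control follicular groups that hold few or no reads of the segment. Without the 4 libraries with kidney transcripts 3 segments were called between TFR and Treg cells. That fit keeps only control Tconv 3 of its group, so no count is given between TFH and Tconv cells.

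**Figure D4:**
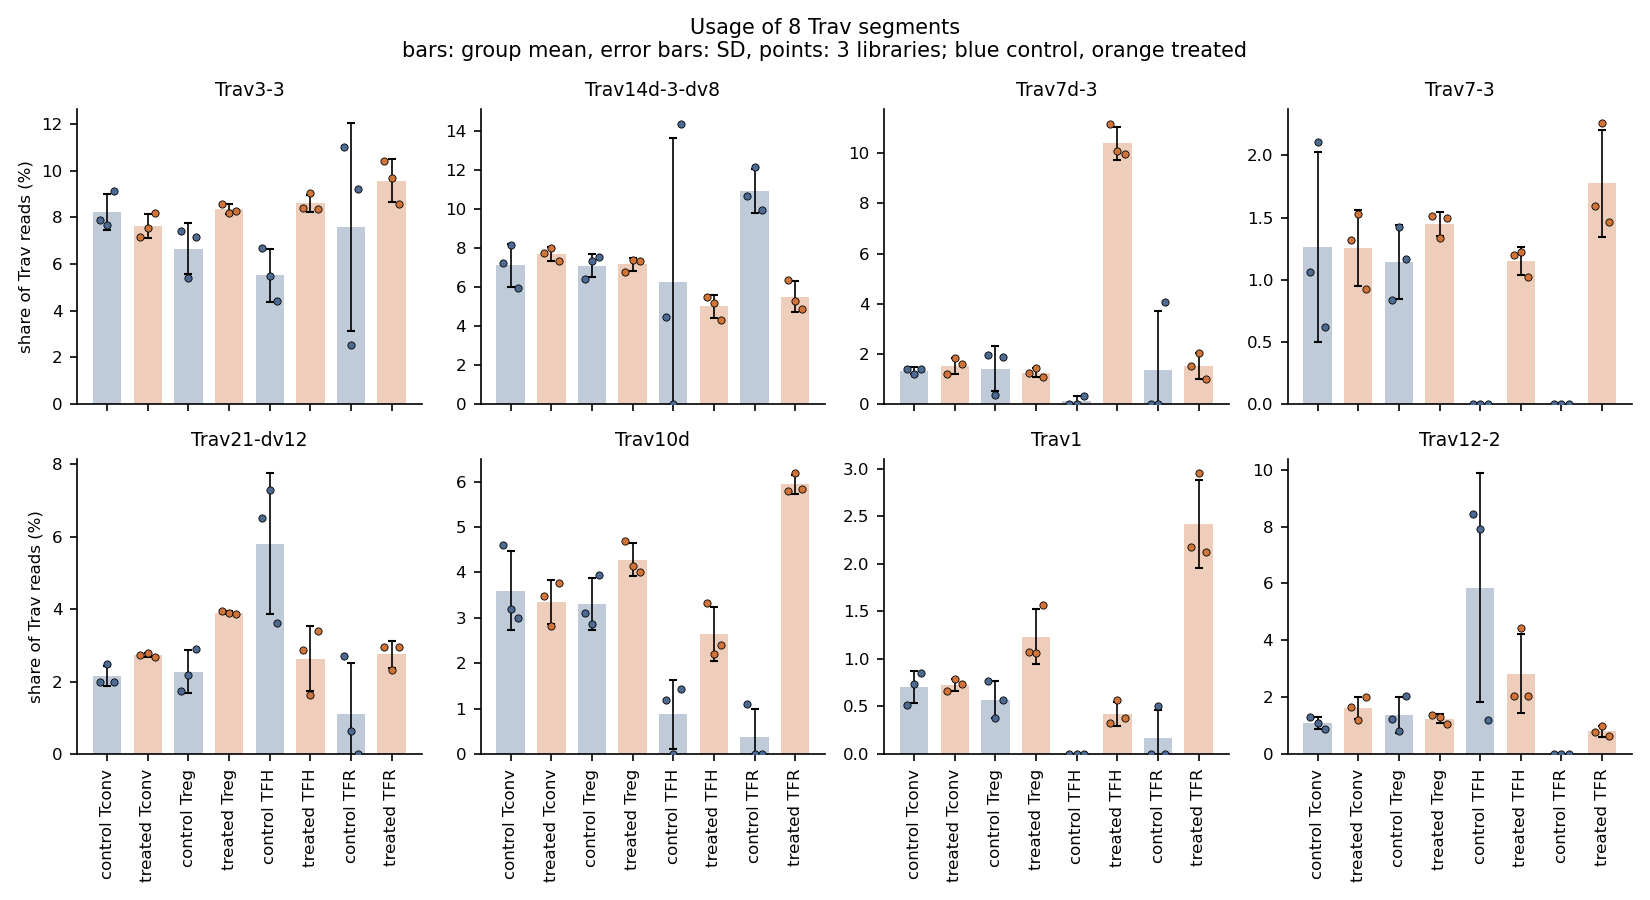
Usage of 8 Trav segments (percent of Trav reads, linear axis) in each of the 24 libraries, by subset and treatment. Points are libraries, bars are means of the 3 libraries of a group and error bars are SDs. Trav7d-3 lies at 9.97 to 11.2% in treated TFH libraries and at 0 to 4.06% in the other 21.

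Trav7d-3 was the most used Trav segment in each treated TFH library. It took 11.2, 10.1 and 9.97% of Trav reads there, from 659, 411 and 497 reads, with Wilson 95% intervals of 10.4 to 11.99, 9.19 to 11.04 and 9.17 to 10.8%. In control TFH libraries it took 0, 0 and 0.343%. It took 1.19 to 1.42% in control Tconv, 1.19 to 1.82% in treated Tconv, 0.381 to 1.98% in control Treg, 1.10 to 1.45% in treated Treg and 0.996 to 2.04% in treated TFR libraries. Control TFR libraries took 0, 0 and 4.06%, the last from 11 of 271 reads. The treated TFH libraries lay above all others without overlap.

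The rise of Trav7d-3 in TFH cells was 5.96 on the log2 scale (SE 1.43, adjusted p = 0.0049 by edgeR), with 1567 reads in treated and 6 in control libraries. The difference from treated Tconv cells was 2.76 (SE 1.15, adjusted p = 0.10) in the model of all libraries. In the fit of those 6 libraries it had an SE of 0.21 and an adjusted p of 4.1e-05. Treated TFR cells lay below treated TFH cells by a log2 difference of -2.77 (adjusted p = 0.17, and 0.0012 in the fit of those 6 libraries).

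Trav7d-3 (chr14:52744249-52744840, plus strand) has a near copy in Trav7-3 (chr14:53443249-53443839, plus strand). Their last 120 bases are printed because the calls on both genes rest on telling them apart, with differing bases in capitals.
Trav7d-3: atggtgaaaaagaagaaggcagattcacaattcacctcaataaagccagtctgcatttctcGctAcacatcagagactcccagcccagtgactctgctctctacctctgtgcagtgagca
Trav7-3: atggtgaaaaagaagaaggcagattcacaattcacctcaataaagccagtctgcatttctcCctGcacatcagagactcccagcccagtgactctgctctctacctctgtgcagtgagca
Over 402 transcript bases they differ at 4 positions, A19C, A56G, G344C and A347G, counted from the transcript's 5′ end with the base of Trav7d-3 first. Windows of 50 bases that occur in no other transcript gene made up 30.9% of Trav7d-3 and 29.2% of Trav7-3. Trav7-3 took 1.20, 1.23 and 1.02% of Trav reads in treated TFH libraries, so the 2 copies stood apart there, and how reads that fit both were counted is not given in the sources used here.

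Trav1, the alpha segment of the mucosal-associated invariant T cell receptor, was highest in treated TFR libraries (chr14:52427928-52428876, plus strand). It took 2.18, 2.96 and 2.12% of Trav reads there, above all other libraries, and 1.07, 1.06 and 1.57% in treated Treg libraries. Control TFR libraries took 0, 0.508 and 0%, and the rise was 3.65 on the log2 scale (SE 0.98, adjusted p = 0.011). In the fit of the 6 TFR libraries the adjusted p was 0.11. Against treated TFH libraries, which took 0.322, 0.564 and 0.381%, the difference was 2.51 (adjusted p = 0.075, and 0.0033 in the fit of those 6 libraries). No control TFH library had a Trav1 read.

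Trav11, the alpha segment of invariant natural killer T cells, had no read in any library. Its copy Trav11d, identical over 342 bases, had 19 reads in all, most of them in treated TFH 1 and 3 at 0.0847 and 0.221% of Trav reads. Reads that fit 2 identical genes can be dropped or split by a counter, so these values do not measure how much the segment was used.

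A few more segments had shares that stood apart between groups. Trav21-dv12, a segment that can also join the delta chain, took 3.95, 3.89 and 3.86% of Trav reads in treated Treg and 1.74, 2.19 and 2.90% in control Treg libraries. The fit of the 6 Treg libraries gave an adjusted p of 0.037 for this difference. It took 6.53, 7.30 and 3.61% in control TFH and 2.70, 0.635 and 0% in control TFR libraries, a log2 difference of -2.26 between them (SE 0.72, adjusted p = 0.038). Without control TFR 2, control TFH 1 or control TFH 2 the adjusted p was 0.054 to 0.098. Trbv13-3 took 0.261, 0.327 and 0.392% of Trbv reads in treated TFH and 2.03, 2.08 and 1.26% in treated TFR libraries. The Trbv24 row, annotated as a pseudogene, took 1.90, 2.21 and 1.99% in control Tconv and 0.249, 0.363 and 0.504% in treated TFH libraries.

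Which segments could be read at all depended on their copies. A window of 50 bases was called unique where no other gene's transcript holds it. The 42 Trav segments without any unique window held 0.975% of Trav reads, and 30 of them had fewer than 10 reads over all 24 libraries. The 33 with under 50% unique windows held 26.4%, and the 53 others held 72.7%. For Trbv 32 of 35 segments had at least 50% unique windows, and these held 98.2% of Trbv reads. Functional segments held 98.5% of Trav and 97.8% of Trbv reads in control Tconv libraries.

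**Figure D5:**
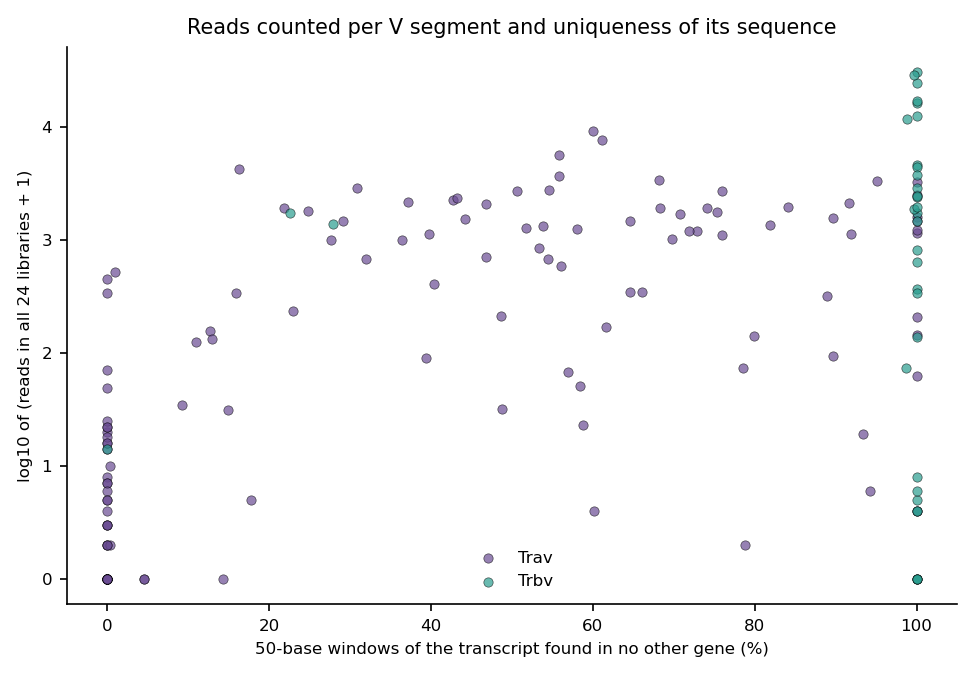
Reads per V segment summed over all 24 libraries (vertical axis, log10 of reads plus 1) against the percent of its 50-base windows that no other transcript holds, for Trav and Trbv. Points are segments. Trav segments without a unique window, 42 of 128, hold 0.975% of Trav reads.

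Along the alpha locus, reads came from all parts. In control Tconv libraries the 43 segments of the first part of the locus took 25.4 ± 1.73% of Trav reads, the 43 of the middle part 26.1 ± 1.68% and the 42 nearest the joining segments 48.5 ± 0.914% (SD, n = 3). Copies marked d took 25.9 ± 1.45% and copies marked n 12.6 ± 1.13% there. In control TFH libraries copies marked d ranged from 0 to 26.4%. Copies marked n took 8.61 to 21.9% in control TFH, 9.17 to 9.45% in treated TFH and 3.69 to 8.49% in control TFR libraries.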

How the data were processed

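The submitters' processing notes name STAR, featureCounts and the genome mm10. Versions, gene annotation, strand mode and how duplicates or multiply mapped reads were treated are not given in the sources used. Values are raw counts per gene as deposited by the authors, and they were checked to be whole numbers that sum differently in each library. Per the labels' protocols, total RNA was depleted of ribosomal RNA and made into CORALL libraries.

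Symbols, biotypes and coordinates came from GENCODE M21, which held 38872 of the IDs but not the other 184. The test was that of edgeR 4.0.16 (R 4.3.3): filterByExpr by group kept 18789 genes, 8 group means were fitted to 24 libraries, and two-sided quasi-likelihood F tests were adjusted by Benjamini-Hochberg over all genes, with calls under 0.05. For usage, Trav and Trbv rows had the log of their chain's summed reads as offset and all other rows TMM effective sizes. For level, all rows had TMM sizes. The test was tried on simulated counts first. Apart from the changes put in, these gave each gene the same mean rate and spread in all groups. The spread of the real groups differed widely, so the trial does not show how the test behaves on them. The members and lists were chosen with earlier results of these data known.

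Named segments were the 12 Trav and 10 Trbv with the largest mean share. Added were up to 4 per direction and comparison by size among those called, without overlap and with at least 1% in the higher group, and Trav1, Trav11, Trav11d, Trbv1, Trbv24 and Trbv31. A selection of them, picked with the values known, is described, and the text says where a segment falls outside the rule. Wilson 95% intervals of single shares cover counting error only, since reads are not independent molecules, and for the leading segments reach at most 4.68 (Trav) and 3.75 (Trbv) percentage points above the share. Libraries holding kidney transcripts had podocyte markers over 10 CPM in sum and at least 10 times the lowest library of their group. Alternatives were DESeq2 1.42.0, other scalings, no low-count filter, a replicate block, only the libraries compared, and leaving out each library or the kidney libraries.

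Trbv4 and Trbv5 share exon bases with 5830405F06Rik, Trbv8 and Trbv10 with AC153851.1, Trav13d-3 with Gm30214 and Trav13n-3 with Gm43650, so their counts are uncertain. Same-numbered libraries did not deviate together in any comparison for every pair, so the numbers were not taken as pairs.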

Additional observations from a re-analysis of the deposited data

Results flagged for a closer look

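For 22 combinations of segment and subset, the difference between treated and control mice itself differed between subsets, by edgeR's quasi-likelihood test of the interaction term with Benjamini-Hochberg adjustment over all genes. Groups held 3 libraries, too few to look for single libraries that stand apart.

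Between TFH and Tconv cells, 14 Trav segments and no Trbv segment showed a larger treatment difference in TFH cells, 14 of 92 tested segments beside 14.4% of all genes called higher. The adjusted p was 0.0018 for Trav13d-4, 0.0026 for Trav7-3, 0.0034 for Trav19, 0.0049 for Trav8d-1, 0.0055 for Trav8n-2, 0.0089 for Trav13n-3 and 0.015 for Trav14-2. It was 0.019 for Trav9n-4, 0.02 for Trav8-2, 0.021 for Trav12-1, 0.025 for Trav1, 0.028 for Trav7d-3, 0.035 for Trav4-2 and 0.046 for Trav12-3. In control TFH libraries Trav7d-3 had 6 reads, Trav8d-1 had 4 and Trav12-3 had 3, and the rest of these 14 segments had none.

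Between TFR and Treg cells, 7 Trav segments and Trbv17 showed a larger treatment difference in TFR cells, 8 of 92 tested segments beside 5.21% of all genes called higher. The adjusted p was 0.0038 for Trav7-3, 0.0038 for Trbv17, 0.0056 for Trav8n-2, 0.0074 for Trav13d-4, 0.01 for Trav12-2, 0.02 for Trav13n-3, 0.034 for Trav9n-4 and 0.039 for Trav7n-4. None of these 8 segments had a read in control TFR libraries.

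Trav13d-4, Trav7-3, Trav8n-2, Trav13n-3 and Trav9n-4 were called in both. The 2 interactions share no library, but none of these segments had a read in control TFH or control TFR libraries. Both sets of calls thus compare with control follicular groups in which the segment was unread. Those groups held the fewest Trav reads, 2750 and 2060, and the part of depth in these calls was not tested. By edgeR, Trav9n-4 was not called for treatment in TFH (adjusted p = 0.069) or TFR cells (0.085). Without the 4 libraries holding kidney transcripts, 3 segments were called between TFR and Treg cells. That fit keeps only control Tconv 3 of its group, so no count is given between TFH and Tconv cells. The 4 libraries left out are in control Tconv, treated TFH and treated TFR groups, and their part in these results was not tested. Treated Treg 3, with 121 CPM of podocyte markers, fell short of the rule and stayed in that fit.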

How the results depend on the processing

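Counts are of V segments called, and no result changed direction under any alternative run. Shares of all genes are given above only for the main fits and the fits of only the libraries compared. Counts from the other runs therefore do not show whether V segments moved more than genes in general. The cause of the changes below was not tested, except that leaving out libraries leaves fewer samples. Scaling by functional segments, median-ratio scaling of each chain and relative log expression factors kept each count within 1.5 times. DESeq2 called 2 segments for treatment in Tconv, 2 in Treg, 6 for control Treg against Tconv, 23 for control TFR against TFH, 1 for treated Treg against Tconv, 7 for treated TFR against TFH and 7 for treated TFH against Tconv, and by level 7 in Tconv and 5 in Treg. Without the low-count filter there were 0 for treatment in Treg, 12 in TFH and 10 in TFR, 0 for control Treg against Tconv, 13 for TFH against Tconv and 6 for TFR against Treg, 0 for treated TFR against TFH and 1 for TFH against Tconv, 9 and 3 for the interactions, and by level 0 in Treg and 13 in TFR.

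With only the libraries of the groups compared, treatment gave 6, 8, 8 and 9 calls in Tconv, Treg, TFH and TFR, control TFH against Tconv 8, TFR against Treg 0 and TFR against TFH 0, treated Treg against Tconv 17, TFH against Tconv 14, TFR against Treg 9 and TFR against TFH 10, and level 26, 15, 8 and 11. Without the kidney libraries only control Tconv 3 is left of its group, so calls that involve control Tconv are not given for that fit. The other calls were 0 for treatment in Treg and 12 in TFH, and in treated mice 0 for TFR against TFH and 0 for TFH against Tconv. The calls were 3 for the TFR interaction, and by level 0 in Treg, 12 in TFH and 13 in TFR. Without control TFH 2 and control TFR 3, chosen after seeing the data, they were 2 for treatment in Tconv, 4 for control Treg against Tconv, 1 for treated Treg against Tconv, 5 for TFH against Tconv, 3 for TFR against TFH and 13 for the TFR interaction, and by level 4 in Tconv and 3 in Treg.

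Leaving out 1 library at a time gave 0 to 0 calls for treatment in Treg, 14 to 26 in TFH and 13 to 25 in TFR, and in control mice 0 to 2 for Treg against Tconv, 14 to 30 for TFH against Tconv, 9 to 19 for TFR against Treg and 13 to 24 for TFR against TFH. It gave 0 to 1 for treated TFR against TFH, 1 to 2 for TFH against Tconv, 9 to 19 and 5 to 13 for the interactions, and by level 0 to 1 in Treg, 15 to 26 in TFH and 13 to 29 in TFR. The counts moved by over 1.5 times without treated TFH 2 (14, treatment in TFH), control TFR 1 (25 for treatment in TFR, 19 for control TFR against Treg and 13 for the interaction) and control TFH 3 (24, control TFR against TFH). They also did without control Tconv 2 (14, control TFH against Tconv), treated Tconv 2 or 3 (9, interaction), treated Treg 1 or 3 or treated TFR 2 (5, interaction), and treated TFR 1 or 2 (13, level in TFR).

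With the replicate number as a block (replicate block), 1 segment in place of 2 was called for control Treg against Tconv, 16 in place of 22 for treatment in TFH and 14 in place of 16 in TFR. Deviations of same-numbered libraries had correlations of -0.806 to 0.7, and in 0 of 12 comparisons was every pair over 0.1, so these numbers do not show pairs. Of the 64 pairs of named segment and comparison, 24 lost their call without the filter and 8 with the block. In the fits of only the libraries compared 36 stayed the same, 22 lost their call and the rest were not scored. Some pairs involve control Tconv, of which the fit without the kidney libraries keeps only control Tconv 3, so no count is given for that fit. Depth limits the control TFH and TFR groups, whose 3 libraries together held 2750 and 2060 Trav reads.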
